A study of Mus musculus with 6 samples.

Results

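The 47 genes described here encode the signalling machinery of the T cell receptor: the CD3 chains, the kinases and adaptors next to the receptor, the calcium, RAS and NF-kB arms below them, and the phosphatases, ubiquitin ligases and inhibitory receptors that restrain the signal. They were chosen by symbol, and each of the 47 had 1 row among the 14868 genes of the deposited table. All 47 had a mean above the minimum of 10 set for testing. The study cultured naive CD4+ T cells, the helper lineage before its first contact with antigen. The cells were either wild type (WT) or deficient for Ikzf4 (Ikzf4-/-), both on a C57BL/6J background. Ikzf4 encodes Eos, a zinc finger transcription factor of the Ikaros family. All cultures received plate-bound anti-CD3 (5 µg/mL) and anti-CD28 (2 µg/mL), which engage the receptor complex and its costimulatory receptor, and were polarized towards T helper 2 (Th2) cells with 10 ng/mL interleukin-4 and 10 µg/mL of an antibody to interferon gamma. RNA was taken at 72 h, and each genotype had 3 libraries. How the allele was made and the age and sex of the mice are not given in the sources used here. Nothing in the labels says that the libraries of a genotype came from separate cultures or mice, so p-values measure the spread between these libraries, which may be technical.

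When the receptor binds its ligand, or is cross-linked by anti-CD3 as in these cultures, the kinase Lck phosphorylates the CD3 and zeta chains, and Zap70 docks there and phosphorylates the adaptors LAT and SLP-76. These adaptors assemble phospholipase C gamma 1, which releases the messengers that open calcium channels and switch on the RAS and protein kinase C theta pathways. Calcineurin, the MAP kinases and NF-kB then carry the signal to the nucleus, and brakes at each level limit how strong and how long it is. The measurements below are of transcripts only, and phosphorylation and protein amount were not analysed here.

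Each value is a normalized read count, that is, reads per gene divided by 1 size factor per library. Read totals estimated from the spacing of the values ran from 34701390 to 40604346 per library and are estimates only, since the spacing was too near 1 in 2 libraries to be taken as reads. The members, with a median WT mean of 6906 and a lowest of 54.9 (Txk), were sampled deeply with that exception. Ikzf4 itself was at 756, 499.6 and 483 in the respective WT replicates 1 to 3, and at 25.2, 10.5 and 38.2 in those labelled Ikzf4-/-, so every library matched its label. The summed level of 6 T cell markers (Cd3d, Cd3e, Cd3g, Cd4, Trac, Trbc2) ran from 83768 to 86828 in WT and from 84716 to 89486 in Ikzf4-/- libraries. Summed levels of the other cell types were low and overlapped between genotypes: Cd8a and Cd8b1 gave 236 to 423 in WT and 232 to 374 in Ikzf4-/-, the B cell genes Cd79a and Cd79b 51.1 to 83.6 and 58.6 to 90.4, the myeloid gene Cd68 59.6 to 96.1 and 69.3 to 89.0, and the natural killer cell gene Klrd1 17.0 to 38.6 and 12.1 to 36.2. The other 7 markers fixed for these cells were not analysed here. Among WT libraries, replicate 1 lay farthest from the others over the members, with a median absolute log2 deviation of 0.09 against 0.05 and 0.07.

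Most of the machinery was expressed at nearly the same level with and without Eos. Differences are log2 fold changes, Ikzf4-/- minus WT, on the log2(value + 1) scale, from a limma fit over all 14864 genes past the filter, and a gene was called at a Benjamini-Hochberg adjusted p under 0.05 over all of them. Of the 47 members 3 were called (6.38%), against 1.77% of all genes tested: Rel and Cd5 rose, against 0.572% of all genes called higher, and Mapk3 fell, against 1.2% called lower. With the replicate number as a block 5 of the 47 members were called, against 754 of all 14864 genes (5.07%). At an unadjusted p under 0.05 there were 19 of the 47 members, against 2687 of all 14864 genes (18.1%). For 17 members (36.2%) the ranges of WT and Ikzf4-/- values were separate, against 23.1% of all genes. The median absolute log2 difference was 0.09 for the members and 0.11 for all genes tested, and 25 members were fitted higher and 22 lower. Here and below, values over all genes were not matched for read count. All genes tested include means down to 10, while the members had a median WT mean of 6906. For 30 of the 44 members that were not called the fitted difference was under 10% in either direction. The 95% interval lay within a 1.5-fold change either way for 41 of those 44, so larger changes of these transcripts would lie outside their intervals. The exceptions were Tec, Txk and Ubash3b. In RNA from whole cultures, fewer cells of a type and less RNA per cell cannot be told apart.

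**Figure D1:**
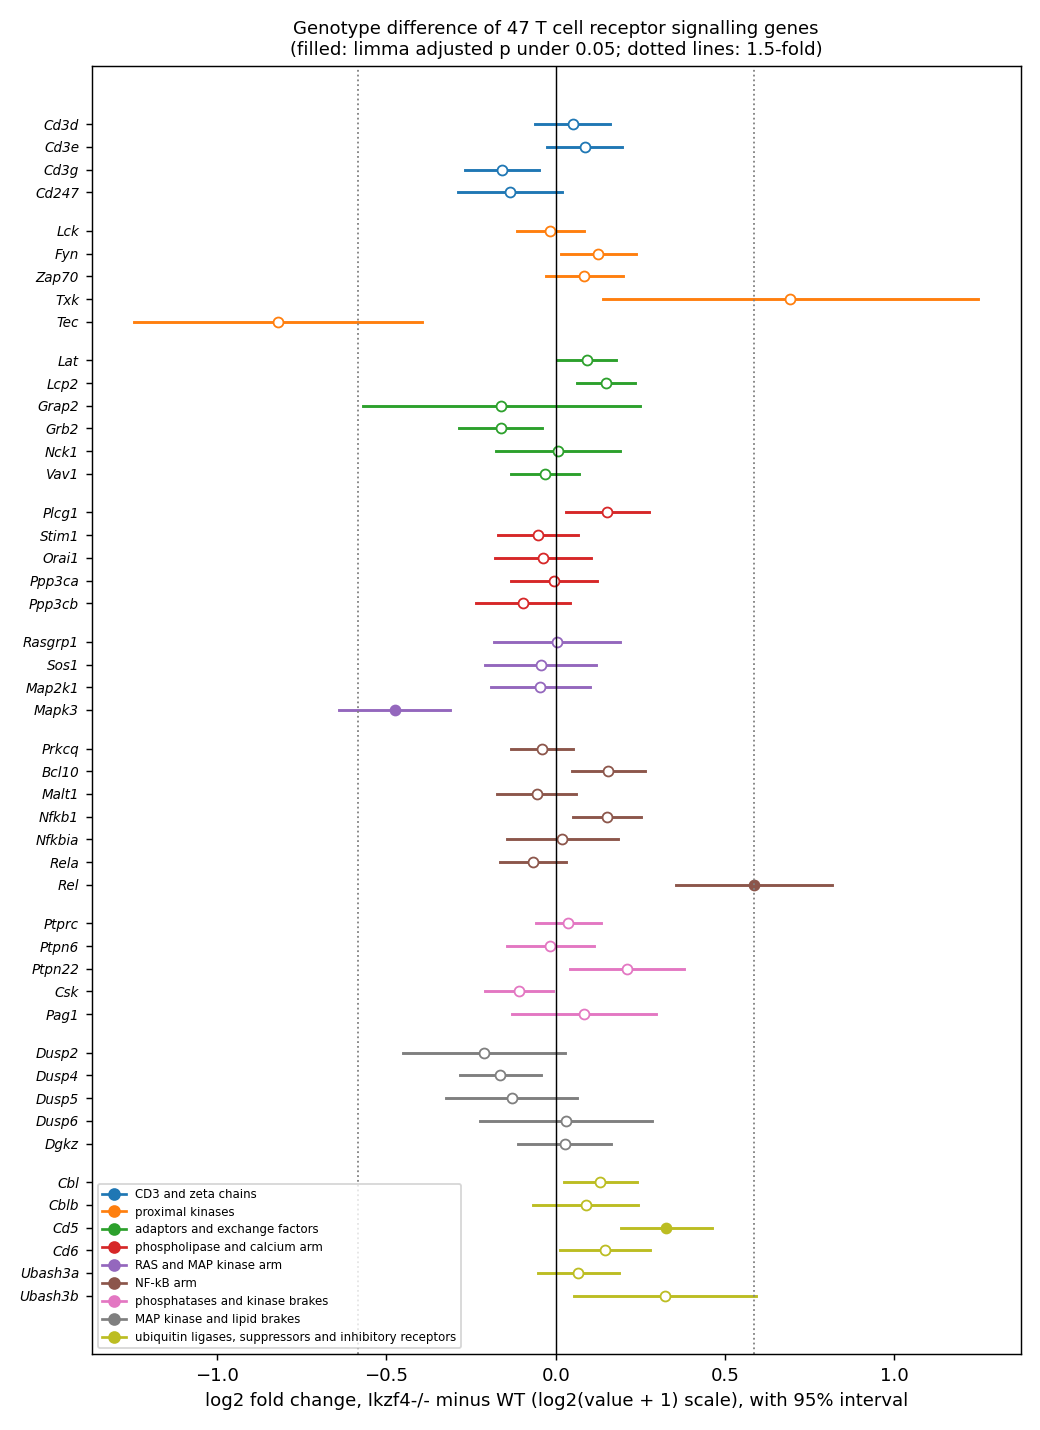
Log2 fold change of each of the 47 members (x axis, Ikzf4-/- minus WT, log2(value + 1) scale) with its 95% interval from limma, grouped by role, with 3 libraries per genotype. Filled points mark the 3 called members, Mapk3 at -0.48, Rel at 0.59 and Cd5 at 0.33, and dotted lines mark a 1.5-fold change, which the intervals of 42 of the 47 members do not reach.

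The receptor's own chains were abundant, and limma called none of the 4. An unadjusted p under 0.05 was found for 1 of the 4, against 18.1% of all genes tested. Cd3d, Cd3e and Cd3g encode the CD3 subunits that pair with the antigen-binding chains, and Cd247 encodes the zeta chain with its multiple phosphorylation motifs. Cd3g stood at 12926, 12312 and 12160 in WT and at 11055, 11833 and 10636 in the Ikzf4-/- libraries. All 3 Ikzf4-/- values lay below all WT values, but the log2 difference of -0.16 (SE 0.05) did not pass (limma adjusted p = 0.130). Its neighbours on chromosome 9 were fitted slightly the other way, Cd3d at 0.05 and Cd3e at 0.09 (limma adjusted p = 0.652 and 0.416), and their values overlapped between genotypes. Cd3d lies 1354 bp from Cd3g and 11400 bp from Cd3e. Cd247 had a log2 difference of -0.13 (limma adjusted p = 0.337). Its value is uncertain, since 56.4% of its annotated exon bases also lie in exons of Pou2f1 on the opposite strand and the use of strand in counting is not given in the sources used here.

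Among the proximal kinases the 3 abundant ones differed little, and the 2 rare Tec-family kinases differed in opposite directions without being called. Of the 5, 3 had an unadjusted limma p under 0.05, against 18.1% of all genes tested. Lck, the Src-family kinase that starts the cascade, was the most abundant member per length, with a WT mean of 8619 normalized reads per kb of exon, counting the exons of all annotated isoforms. It was at 24298, 25911 and 25528 in WT and 24272, 25758 and 24864 in Ikzf4-/- libraries, overlapping throughout (log2 difference -0.02, 95% interval -0.11 to 0.08). Fyn, the second Src-family kinase of T cells, and Zap70 had log2 differences of 0.13 and 0.08 (limma adjusted p = 0.213 and 0.427).

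Tec encodes a kinase of the family that activates phospholipase C gamma. Its values were 387, 231 and 250.4 in WT and 142, 182 and 156 in Ikzf4-/- libraries, in replicate order. WT replicate 1 stood well above the others, and all Ikzf4-/- values lay below all WT values. The log2 difference was -0.82 (SE 0.19), with a limma adjusted p of 0.0605, and without WT replicate 1 it was at its smallest, -0.59. Txk, which encodes a related kinase also known as Rlk, was barely expressed, at 37.3, 69.2 and 58.2 in WT and 80.7, 82.7 and 97.4 in Ikzf4-/- libraries. All Ikzf4-/- values lay above all WT values, with WT replicate 1 the lowest (log2 difference 0.69, SE 0.25, limma adjusted p = 0.177), and the difference was 0.44 without that library. Txk and Tec are neighbours on the minus strand of chromosome 5, 2938 bp apart. In the authors' deposited table Tec had an adjusted p of 0.00148 and Txk of 0.191. That table called 5 of the 47 members, Rel, Cd5, Mapk3, Lcp2 and Tec, against 815 of the 12849 genes with an adjusted p there (6.34%).

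The adaptors that build the signalling complex were not called in the limma fit. Of the 6, 3 had an unadjusted p under 0.05, against 18.1% of all genes tested. Lcp2 encodes SLP-76, the scaffold that brings Vav1 and phospholipase C gamma to LAT. It was at 18595, 18871 and 18519 in WT and at 20579, 20822 and 20714 in Ikzf4-/- libraries, tight and separate groups. Its log2 difference of 0.15 (SE 0.04) had a limma adjusted p of 0.0789, and 0.0260 in the authors' deposited table. Lat, the membrane scaffold itself, was fitted higher by 0.09 and also did not overlap between genotypes (limma adjusted p = 0.255). Grb2, the small adaptor that recruits SOS, was fitted lower, at 7408, 6703 and 6605 in WT and 6161, 6434 and 5903 in Ikzf4-/- libraries (log2 difference -0.16, limma adjusted p = 0.157). The groups did not overlap. Vav1, a guanine nucleotide exchange factor, and Nck1, an adaptor to the actin machinery, had log2 differences of -0.03 and 0.01. Grap2, which encodes the adaptor GADS that links SLP-76 to LAT, had the widest spread of any member in WT, with a coefficient of variation of 33.9%. It was at 1222, 695 and 718 there and at 829, 657 and 802 in Ikzf4-/- libraries, and its 95% interval ran from -0.57 to 0.25.

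In the phospholipase and calcium arm 0 of 5 members were called. An unadjusted limma p under 0.05 was found for 1 of 5, near the 18.1% of all genes tested. Plcg1 encodes phospholipase C gamma 1, which splits a membrane lipid into the calcium and RAS messengers. It was at 8030, 9073 and 8735 in WT and at 9121, 10028 and 9552 in Ikzf4-/- libraries. The groups were separate by a narrow margin (log2 difference 0.15, SE 0.06, limma adjusted p = 0.179). Stim1, the calcium sensor of the endoplasmic reticulum, and Orai1, the pore of the channel it opens, had log2 differences of -0.05 and -0.04. The calcineurin catalytic subunits, Ppp3ca and Ppp3cb, had differences of -0.01 and -0.10, and the intervals of all 4 lay between -0.24 and 0.12.

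The RAS and MAP kinase arm held the 1 member that fell. Mapk3 (ENSMUSG00000063065, chromosome 7, plus strand, bases 126759601 to 126765819 of GRCm38) encodes the kinase ERK1. Its normalized read count was 1706, 1578 and 1613 in WT and 1101, 1302 and 1125 in Ikzf4-/- libraries. All 3 Ikzf4-/- values lay well below all WT values, and the mean went from 1632 ± 66.5 to 1176 ± 110 (SD, n = 3 each). The log2 difference was -0.48 (SE 0.07, limma adjusted p = 0.0198), and -0.47 with an adjusted p of 6.7e-06 in the authors' deposited table. Without Ikzf4-/- replicate 1 (limma adjusted p = 0.0630) or 3 (0.0875) Mapk3 was not called, with log2 differences of -0.43 and -0.45, and it was called without each of the other 4 libraries. The other genes of the arm had small fitted differences. These were Rasgrp1, the diacylglycerol-driven RAS activator, at 0.003, Sos1, the exchange factor carried by Grb2, at -0.04, and Map2k1, which encodes the ERK-activating kinase MEK1, at -0.04 (limma adjusted p from 0.779 to 0.992).

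**Figure D2:**
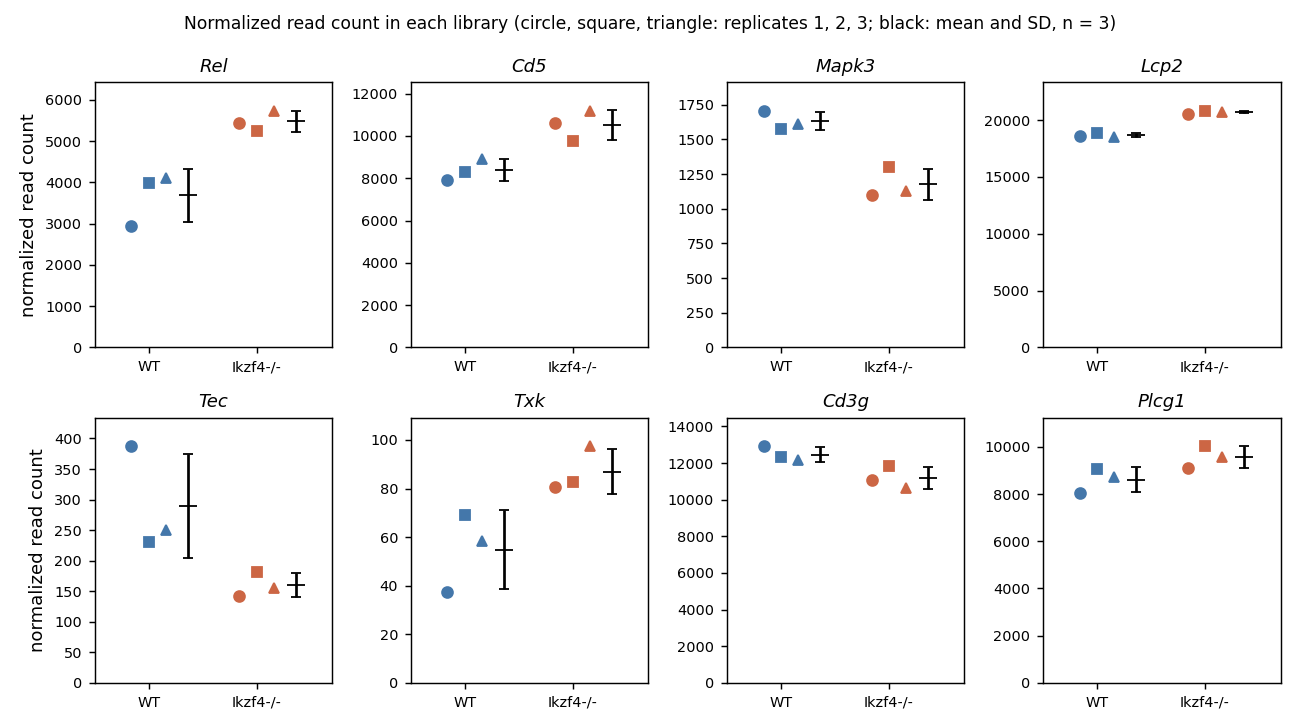
Normalized read count (y axis, from 0) of 8 members in each library, with circle, square and triangle for replicates 1, 2 and 3 and the mean and SD (n = 3) in black. Rel, Cd5 and Mapk3 are the called members; Mapk3 goes from a WT mean of 1632 to 1176, and WT replicate 1 is the outlying WT library for Rel, Tec and Txk.

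In the NF-kB arm Rel rose and the other 6 members were not called. Rel (ENSMUSG00000020275, chromosome 11, minus strand, bases 23736847 to 23770970 of GRCm38) encodes c-Rel, the NF-kB subunit most tied to lymphocytes, where it drives cytokine genes and proliferation. The libraries held 2951, 3991 and 4106 in WT against 5441, 5249 and 5736 in Ikzf4-/-. All Ikzf4-/- values lay above all WT values, with WT replicate 1 the lowest. The mean went from 3683 ± 636 to 5476 ± 245 (SD, n = 3 each) (log2 difference 0.59, SE 0.10, limma adjusted p = 0.0281), with an adjusted p of 7.26e-07 in the authors' deposited table. Without WT replicate 1 the log2 difference was 0.43 and still called. Rel was not called without Ikzf4-/- replicate 1 (limma adjusted p = 0.0784), 2 (0.0641) or 3 (0.111), where its log2 difference was 0.59, 0.62 and 0.55.

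The other NF-kB subunits did not share the size of that rise. Nfkb1, which encodes the p105 precursor of p50, was at 22133, 22839 and 23620 in WT and 25705, 24387 and 26058 in Ikzf4-/- libraries, separate groups with a log2 difference of 0.15 (limma adjusted p = 0.115). Rela, which encodes p65, had a difference of -0.07 (0.05 after removal of GC content and length trends), and Nfkbia, which encodes the inhibitor that holds NF-kB in the cytoplasm, of 0.02 (limma adjusted p = 0.467 and 0.926). Within each library the log2 ratio of Rel to Rela per length, which does not depend on scaling between libraries, was -2.01, -1.61 and -1.51 in WT and -1.09, -1.10 and -0.98 in Ikzf4-/- libraries. That is 0.65 higher on average with no overlap (exact permutation test, two-sided, p = 0.1, the smallest that 3 against 3 can give). The ratio was chosen after the values were seen, with Rel already separate between genotypes, so its lack of overlap is no separate support. Upstream, Bcl10 was fitted 0.16 higher with separate groups (limma adjusted p = 0.128), while its partner Malt1 and the kinase gene Prkcq, which encodes protein kinase C theta, were at -0.06 and -0.04. Bcl10 and Malt1 are parts of the complex that joins protein kinase C theta to NF-kB.

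The windows upstream of the members that rose are shown because NF-kB is known to bind its own genes and because Eos belongs to the Ikaros family, whose core motif is TGGGAA. They are the 250 bases before the RefSeq start, on GRCm38.p6, read 5′ to 3′ in the direction of the gene. Capitals mark matches on either strand to TGGGAA or to the NF-kB consensus. The Rel window is chr11:23770970-23771219 and the Cd5 window chr19:10738975-10739224, both on the minus strand. Mapk3 had no entry.
Rel: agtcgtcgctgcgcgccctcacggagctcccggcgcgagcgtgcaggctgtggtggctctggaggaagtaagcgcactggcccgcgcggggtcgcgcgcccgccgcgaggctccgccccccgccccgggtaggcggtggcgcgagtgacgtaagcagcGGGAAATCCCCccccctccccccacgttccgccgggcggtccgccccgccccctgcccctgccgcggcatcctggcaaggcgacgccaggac
Cd5: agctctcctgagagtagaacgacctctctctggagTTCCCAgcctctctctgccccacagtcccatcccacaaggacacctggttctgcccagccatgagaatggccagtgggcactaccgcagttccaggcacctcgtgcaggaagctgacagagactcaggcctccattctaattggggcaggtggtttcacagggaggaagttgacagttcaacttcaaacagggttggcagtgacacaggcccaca
The Rel window, with a GC content of 77.6%, held the NF-kB consensus 92 to 82 bases before the start, where overlapping matches on both strands merge, and no TGGGAA. The Cd5 window, with a GC content of 56.8%, held TGGGAA on the opposite strand 215 to 210 bases before the start and no NF-kB consensus. Of all 32851 such windows 21.6% held TGGGAA and 7.25% the NF-kB consensus. Of the 40 members with an entry, 14 held TGGGAA and 3 the NF-kB consensus in at least 1 window. The members are counted by gene, and a gene can have several windows. Their counts therefore cannot be set directly against the shares by window. A match is a description of letters and shows no binding.

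**Figure D3:**
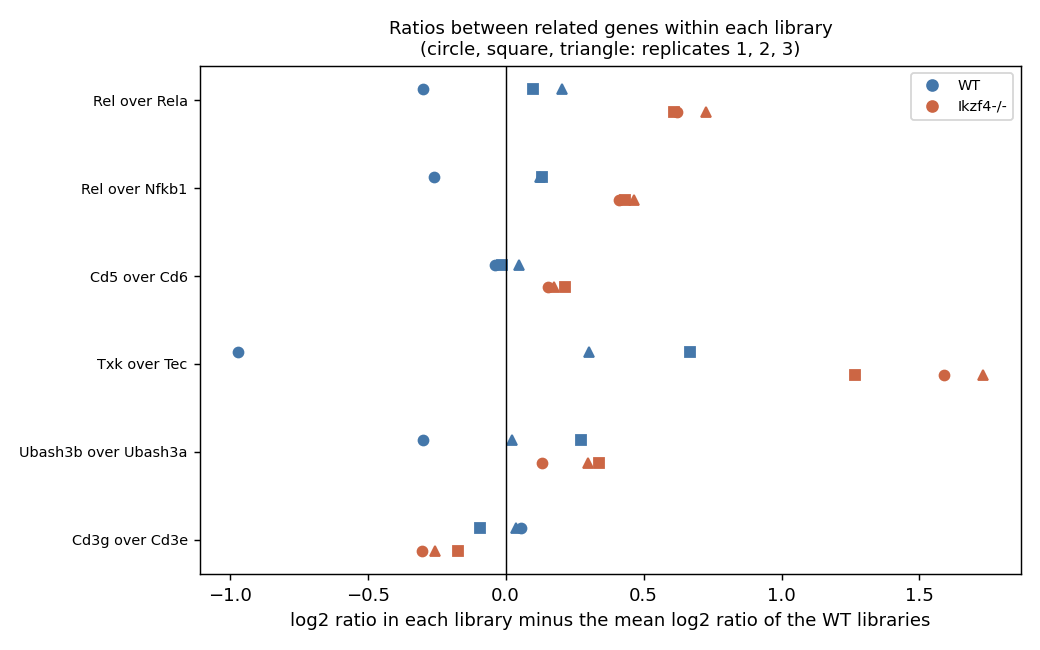
Log2 ratio between pairs of related genes in each library, minus the mean log2 ratio of the 3 WT libraries (x axis), for 6 ratios chosen after the values were seen. Circle, square and triangle stand for replicates 1, 2 and 3. The genotypes do not overlap for 5 of the 6, which is no separate support given that choice, and no such share was computed for other gene pairs. WT replicate 1 lies apart from the other WT libraries in the ratios with Rel and of Txk to Tec.

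The phosphatases and kinases that set the threshold of Lck were not called, with 3 of 5 fitted higher. Of the 5, 2 had an unadjusted limma p under 0.05, against 18.1% of all genes tested. Ptprc, which encodes the CD45 phosphatase that keeps Lck ready, was the member with the highest read count, at 56998, 57408 and 56484 in WT and 56868, 58204 and 60380 in Ikzf4-/- libraries (log2 difference 0.04, 95% interval -0.06 to 0.13). Ptpn6, which encodes SHP-1, had a difference of -0.02 and overlapping values. Ptpn22, a phosphatase that acts with Csk on Lck and Zap70, was at 4210, 5298 and 4511 in WT and 5350, 5624 and 5184 in Ikzf4-/- libraries. WT replicate 2 lay within the Ikzf4-/- range, and the log2 difference was 0.21 (SE 0.08, limma adjusted p = 0.175). Csk, the kinase that shuts Lck off, was fitted 0.11 lower with separate groups (limma adjusted p = 0.243), but at 0.01 after removal of GC content and length trends, where all 5 of these genes were fitted higher. Pag1, its membrane anchor, was fitted 0.08 higher (limma adjusted p = 0.706).

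Of the brakes on MAP kinases and diacylglycerol, 0 of 5 were called by limma. An unadjusted p under 0.05 was found for 1 of 5, near the 18.1% of all genes tested. Dusp4, a nuclear phosphatase of ERK, was at 7783, 8053 and 7288 in WT and 7091, 6480 and 7067 in Ikzf4-/- libraries, lower in each of the latter (log2 difference -0.16, SE 0.05, limma adjusted p = 0.142). Dusp2 and Dusp6 varied most among the Ikzf4-/- libraries, with coefficients of variation of 17.6% and 17.8%. Dusp2 was at 5452, 6543 and 7776 there and at 6817, 8133 and 7775 in WT (log2 difference -0.21, limma adjusted p = 0.337). Dusp6, the cytoplasmic ERK phosphatase, had a difference of 0.03 with a 95% interval of -0.22 to 0.28. Dusp5 was fitted 0.13 lower (limma adjusted p = 0.479), with WT replicate 1 low at 4161 against 5327 and 5378. Without that library it was called at -0.25 (limma adjusted p = 0.0322). An antisense gene on the opposite strand covers 22.1% of its exon bases, so its counts are uncertain. Dgkz, the kinase that removes diacylglycerol, had a difference of 0.03.

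All 6 members among the ubiquitin ligases, their relatives and the inhibitory receptors were fitted higher in Ikzf4-/- cells, against 51.3% of all genes tested. Of the 6, 1 was called, Cd5. The role was drawn up with earlier results of these data known, so the shared direction is no separate support. Over the 16 members grouped as brakes, 11 were fitted higher and 5 lower. Cd5 (ENSMUSG00000024669, chromosome 19, minus strand, bases 10717116 to 10739002 of GRCm38) encodes a surface receptor that restrains signalling and whose level is known to follow the strength of receptor signalling. Its values were 7926, 8293 and 8926 in WT and 10618, 9750 and 11190 in Ikzf4-/- libraries. The groups did not overlap, and the mean went from 8381 ± 506 to 10519 ± 725 (SD, n = 3 each) (log2 difference 0.33, SE 0.06, limma adjusted p = 0.0306). The adjusted p was 7.85e-05 in the authors' deposited table. Cd5 was not called without WT replicate 2 (limma adjusted p = 0.0794), Ikzf4-/- replicate 1 (0.0894) or 3 (0.116), where the log2 difference was 0.32, 0.32 and 0.28.

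Cd6, a related receptor gene 50338 bp from Cd5, was at 9033, 9287 and 9579 in WT and 10587, 9327 and 11014 in Ikzf4-/- libraries, where replicate 2 fell within the WT range (log2 difference 0.15, limma adjusted p = 0.238). The log2 ratio of Cd5 to Cd6 was higher by 0.18 in Ikzf4-/- libraries with no overlap (exact permutation test, two-sided, p = 0.1). Cbl and Cblb encode ubiquitin ligases that mark activated kinases and adaptors for removal, and had log2 differences of 0.13 and 0.09 (limma adjusted p = 0.186 and 0.559). Ubash3b, which encodes the phosphatase Sts-1 that dampens Zap70, was at 2109, 3171 and 2865 in WT and 3108, 3413 and 3541 in Ikzf4-/- libraries. WT replicate 2 overlapped with the latter and WT replicate 1 was the lowest (log2 difference 0.32, SE 0.12, limma adjusted p = 0.192). Without WT replicate 1 the difference was 0.15. Its relative Ubash3a was at 0.07 (limma adjusted p = 0.563). The 6 ratios given had a Benjamini-Hochberg adjusted p of 0.12 for 5 and 0.2 for Ubash3b to Ubash3a, none of which can pass with 3 against 3 libraries. All 6 were chosen after the values were seen, so a lack of overlap in them is no separate support.

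**Figure D4:**
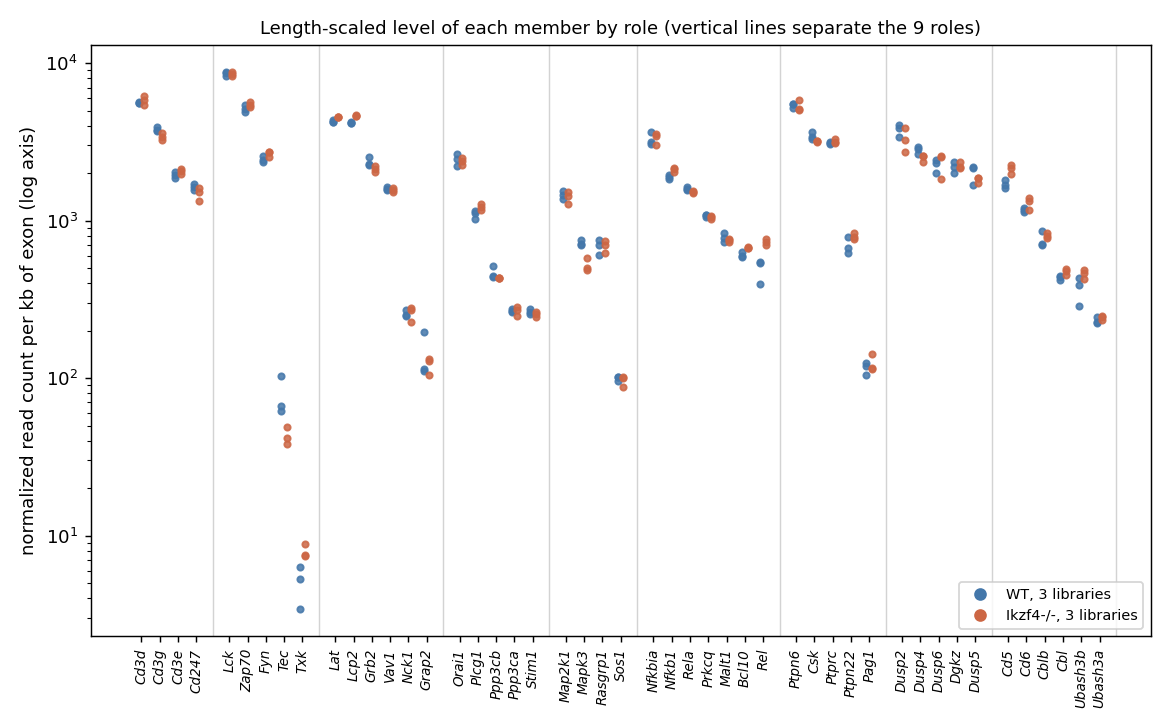
Normalized read count per kb of annotated exon (y axis, log scale) of every member in the 3 WT and 3 Ikzf4-/- libraries, grouped by role and ordered within a role by the WT mean. Lck is the highest at a WT mean of 8619 per kb and Txk the lowest at 5.01, and the spread between genes is far wider than that between genotypes.

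Per kb of exon, the WT means ran from 5.01 (Txk) to 8619 (Lck), with a median of 1595. After Lck came Cd3d at 5608, Ptpn6 at 5382 and Zap70 at 5148. The other receptor chains stood lower, Cd3g at rank 7, Cd3e at 19 and Cd247 at 22. So did the other proximal kinases, Fyn at rank 13, Tec at 46 and Txk at 47. The called members were in the middle and lower part of that order, Cd5 at rank 21, Mapk3 at 31 and Rel at 35 of 47. The median coefficient of variation over 3 libraries was 5.03% in WT and 4.74% in Ikzf4-/-.

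The rest of the pathway was described with a further 86 genes, from the antigen receptor constant regions to the RAS proteins, calcium channels, IkB kinases and lipid kinases, none of them members. An unadjusted limma p under 0.05 was found for 28 of these 86, against 2687 of all 14864 genes (18.1%). Of the 86, 3 were called (3.49%, against 1.77% of all genes): Cd2 and Dok2 fell and Braf rose. Cd2 encodes an adhesion receptor that aids signalling. It was at 10057, 8143 and 8571 in WT and 6611, 6428 and 7011 in Ikzf4-/- libraries, lower in each of the latter (log2 difference -0.41, SE 0.07, limma adjusted p = 0.0258). Dok2, an adaptor that restrains RAS, was at 5266, 4682 and 4390 in WT and 3819, 3564 and 3259 in Ikzf4-/- libraries, again with no overlap (log2 difference -0.43, SE 0.08, limma adjusted p = 0.0258). Braf, the kinase that activates MEK, was at 1496, 1501 and 1456 in WT and 1862, 1723 and 1874 in Ikzf4-/- libraries (log2 difference 0.29, SE 0.06, limma adjusted p = 0.0372). Each of these calls was lost on leaving out some single libraries. Braf was called in 1 of 6 such fits, that without WT replicate 1, with a limma adjusted p of up to 0.137 in the others, and was not called after removal of GC content and length trends (0.0643). Cd2 was not called without Ikzf4-/- replicate 1 (limma adjusted p = 0.0791), 2 (0.0840) or 3 (0.0792), and Dok2 without WT replicate 2 (0.0615) or Ikzf4-/- replicate 2 (0.0708) or 3 (0.102). Their log2 differences ran from 0.27 to 0.33 for Braf, -0.48 to -0.32 for Cd2 and -0.49 to -0.36 for Dok2 over these fits. Without Ikzf4-/- replicate 2 or 3 none of the 86 was called by limma, and the authors' deposited table called 12. The median log2 difference of the 86 was 0.03 and 47 were fitted higher, against a median of 0.005 and 51.3% of all genes tested.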

How the data were processed

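RNA-seq of 3 WT and 3 Ikzf4-/- libraries was used, grouped and numbered as in the labels. Per the submitters' processing notes, the work involved Trimmomatic 0.36, STAR 2.5.2b and DESeq2 on GRCm38 (mm10). Which counter was used, and whether it read strand, is not given in the sources used here. The deposited sample columns hold a never-negative signal, read as read counts divided by 1 size factor per library, since 100% of values were whole multiples (tolerance 0.01) of 1 step per library. The steps of 2 libraries lay too near 1 to be accepted as recovered reads, so no count test was run and log-scaled values were tested. The deposited table also gives the authors' log2 fold changes, p-values and adjusted p-values.

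On the log2(value + 1) scale, the 14864 genes whose mean reached 10 were tested (4 left out). For this, limma 3.58.1 in R 4.3.3 was fitted with genotype as its only term and a mean-variance trend. P-values are two-sided, with Benjamini-Hochberg adjustment across every gene tested. Intervals are limma's moderated 95% intervals. The log2(value + 1) scale understates changes of low genes. Positions and exon lengths come from GENCODE M21, and upstream windows from RefSeq on GRCm38.p6, where 40 of 47 members matched. On simulated data of 14868 genes for this comparison, the fit recovered 29.9% of genes changed 1.25-fold, 82.1% of those changed 1.5-fold and 95.5% of those changed 2-fold. It called 4 unchanged genes. The changed genes were drawn only from genes with means above that of Txk, so these rates do not cover genes as low as Txk.

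Named with full values were members called by limma or in the authors' deposited table, the member with the smallest p in each role, and called genes of the wider list. Other members named in full were chosen after their values were seen. The members, roles and lists were chosen with earlier results of these data known. Alternatives were quantile, upper quartile and equal-total scaling, no filter, a filter of 10 applied to each library, a pseudocount of 0.1 or 10, array weights, a replicate block, fits without 1 library, correction for GC content and transcript length (splines with 5 degrees of freedom), and the authors' deposited calls. Some genes of the wider list, and ratios that use them, are not reported here by name.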

Additional observations from a re-analysis of the deposited data

How the results depend on the processing

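No value of the 9 members tested under each alternative (Rel, Cd5, Mapk3, Lcp2, Tec, Cd3g, Plcg1, Ptpn22, Dusp4) reversed its direction. These 9 were picked from the same data for a call or the smallest p in their role. Their signs were therefore unlikely to turn, and that they held is no separate support. Among the other members, removal of GC content and length trends turned the sign of Csk, Lck, Nck1, Orai1, Ptpn6, Rasgrp1, Rela, Stim1 and Vav1, none of them called. Under other alternatives the sign also turned for Dgkz, Dusp6, Grap2, Map2k1, Nfkbia, Pag1, Ppp3ca and Sos1. Lck, Nck1, Orai1, Ptpn6 and Rasgrp1 turned under some of those alternatives as well, and again none was called there. Of 153 values of the 9 members named first, 140 kept their side of the threshold, 8 lost a call and 5 gained one. The 8 losses were of Rel, Cd5 and Mapk3, each on leaving out 1 library, and the gains were of Tec (replicate block and the authors' deposited table) and Lcp2 (quantile scaling, limma adjusted p = 0.0357, equal totals, 0.0485, and the authors' deposited table). Over fits without 1 library, called members ran from 0 to 4, with 0 without Ikzf4-/- replicate 1 or 3, called genes of the wider list from 0 to 6, and called genes in all from 20 to 523, against 3, 3 and 263. At an unadjusted p under 0.05 there were 19 of the 47 members with all libraries, against 2687 of all 14864 genes (18.1%). The cause was not tested. The authors' deposited table called 5 members, 12 genes of the wider list and 815 genes in all. Array weights called 482 genes, 6 of them on the wider list. Equal library totals moved the higher share of the calls from 32.3% to 42.8%, and removal of GC content and length trends to 42.5%. Txk, with the fewest reads, has the widest interval.

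With the replicate number as a block, 754 genes were called (5.07%), 5 of them members, the 3 above with Tec (limma adjusted p = 0.0410) and Ubash3b, and 8 on the wider list. Libraries with the same number deviated together with correlations of 0.145, 0.0122 and 0.142, and 4 of 6 correlated best with their own number. Since 1 correlation was not over 0.1, the numbers were not treated as pairs.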

Other observations

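Genes that the receptor is known to induce were read from a further list of 14, drawn up with earlier results of these data known. Its counts are therefore a description and no separate support. Of these, 3 were called (21.4%, against 1.77% of all genes tested): Cd69 and Nr4a2 rose and Myc fell in Ikzf4-/- cells. At an unadjusted limma p under 0.05 there were 12 of the 14, against 18.1% of all genes. The genotypes did not overlap for 10 (71.4%, against 23.1% of all genes). Fitted higher were 9 (64.3%, against 51.3% of all genes), and 5 were fitted lower. Cd69, an early activation marker, was at 1183, 1123 and 1171 in WT replicates 1 to 3 and at 1624, 1441 and 1552 in the Ikzf4-/- replicates, with no overlap (log2 difference 0.41, SE 0.06, limma adjusted p = 0.0213). Nr4a2, an orphan nuclear receptor induced by calcium signals, was at 1037, 1424 and 1537 in WT and 1850, 1993 and 1971 in Ikzf4-/- libraries (log2 difference 0.56, SE 0.12, limma adjusted p = 0.0474). Myc, which drives growth of activated cells, was at 6834, 5242 and 5355 in WT and 4378, 3970 and 4565 in Ikzf4-/- libraries (log2 difference -0.42, SE 0.09, limma adjusted p = 0.0490). Over the 6 fits without 1 library, Cd69 was called in 3 and Nr4a2 and Myc in 2 each, with limma adjusted p of up to 0.0875, 0.158 and 0.161 in turn. After removal of GC content and length trends Nr4a2 (0.0541) and Myc (0.0830) were not called by limma.

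The other 11 were not called. Il2, the growth factor gene of activated T cells, was at 1189, 2040 and 2798 in WT and 3418, 3818 and 3706 in Ikzf4-/- libraries, with WT replicate 1 the lowest (log2 difference 0.94, limma adjusted p = 0.0621). Egr1, Egr2 and Egr3, early growth response factors, had log2 differences of 0.28, 0.23 and 0.22 (limma adjusted p = 0.0556, 0.180 and 0.418). Nr4a1 and Nr4a3 had differences of 0.63 and 0.43 (limma adjusted p = 0.0796 and 0.117). Il2ra, the interleukin-2 receptor alpha chain, had a difference of -0.47 (limma adjusted p = 0.0869). Irf4, a transcription factor induced with signal strength, was at 29553, 25744 and 24480 in WT and 22117, 21896 and 22129 in Ikzf4-/- libraries, with no overlap (log2 difference -0.27, limma adjusted p = 0.0612). The costimulatory receptor genes Tnfrsf9 and Tnfrsf4 had differences of -0.14 and -0.15 (limma adjusted p = 0.156 and 0.296), and the adhesion receptor gene Cd44 of 0.25 (0.176). WT replicate 1 was the lowest WT library for all 3 Egr and all 3 Nr4a genes and the highest for Il2ra and Myc.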
